A study of Mus musculus with 6 samples.

Results

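TGF-beta, activin and BMP signalling genes were described in whole hearts of 3 DNMTs-Tg mice (replicates 1, 5 and 6) and 3 wild-type mice (replicates 1, 4 and 6), all 8 weeks old, with 1 Affymetrix array per mouse. The 10 genes were the ligands Tgfb1, Tgfb2, Tgfb3, Inhba, Bmp4 and Bmp6, the receptors Tgfbr1, Tgfbr2 and Tgfbr3, and Ltbp2, a matrix protein that is neither a ligand nor a receptor. They were found as every probe set annotated with a single one of these symbols or a synonym, which gave 20 of the 45101 probe sets on the array, and so 10 of the 18193 genes named there. The DNMTs-Tg mice carry transgenes for the DNA methyltransferase isoform DNMT3A2 and for its cofactor DNMT3L, which has no enzyme activity of its own. They came from FVB-Tg(Ddx4-cre)1Dcas/J mothers, whose Cre is driven by the germ-cell promoter of Ddx4, and a floxed father, and make both proteins in a broad range of somatic cells for life, with slow growth after birth and early death. Neither the promoter of the transgenes nor the wild-type strain is given in the sources used here. The arrays were meant to find genes that the added methyltransferases may silence. DNA methylation itself was not analysed here, and nothing in the labels gives the litters of the mice.

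Ligands of this family are secreted dimers. A type II receptor binds the ligand and activates a type I receptor, which passes the signal to SMAD proteins: SMAD2 and SMAD3 for TGF-beta and activin, SMAD1, SMAD5 and SMAD9 for BMP. TGF-beta is stored in the matrix in a latent form, bound to latent TGF-beta binding proteins, and integrins of the alpha-v type release it. In the heart TGF-beta is known for turning fibroblasts into matrix-producing cells.

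Median log2 signals per array were 5.28 to 5.33. The transgene Dnmt3l had log2 signals of 12.19 to 12.38 in DNMTs-Tg and 5.17 to 5.48 in wild-type hearts. The myocyte markers Tnnt2 and Myh6 had log2 signals of 14.43 to 14.56 and 14.13 to 14.62 over the 6 arrays. The labels give wild-type replicate 6 as male and the other mice as female, but the X-inactivation transcript Xist was high on the array of wild-type replicate 4 alone (10.1, against 4.52 to 4.96 on the others), and the Y-linked gene Eif2s3y was low on that array alone (3.32 against 9.41 to 9.52). The sex-linked RNA therefore went against the label in 4 of the 6 mice, wild-type replicate 1 and all 3 transgenic ones. DNMTs-Tg replicate 1 stood apart from all other arrays: it held the highest signal for 30.2% of the 13634 genes tested and the lowest for 30.1%. For Gapdh the 3' probe set exceeded the 5' one, a gap that widens as RNA degrades, by 0.66 ± 0.12 on the log2 scale (SD, n = 3) in DNMTs-Tg hearts and by 0.43 ± 0.06 in wild-type hearts (exact permutation test, 2-sided p = 0.1, the smallest that 3 against 3 arrays allow). For Actb the same gap was 1.05, 0.91 and 1.40 in DNMTs-Tg replicates 1, 5 and 6. In wild-type replicates 1, 4 and 6 it was 1.25, 1.09 and 1.12, so the groups overlapped. The part of RNA degradation in the results below was not tested.

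The study looked for genes silenced by methylation, which in mammals falls on CpG dinucleotides, so the promoters of the genes are shown with their CpG marked. Of the 10 genes, 8 matched a RefSeq promoter window of GRCm38.p6 (9 windows, since Tgfbr1 has 2), and all counts refer to the 250 bases before the annotated start. The densest was that of Tgfbr1, with 29 CpG, more than 93.2% of the 32851 windows of all genes, followed by Bmp6 with 22, Tgfb1 with 21, Ltbp2 with 16, Tgfbr2 with 12, Bmp4 with 11 and Tgfb2 with 8. Inhba and the second start of Tgfbr1 had 3 CpG each, against a median of 6 over all windows. Those of Tgfb2, Ltbp2, Inhba and the second Tgfbr1 start lie inside the annotated gene, downstream of its outermost start. Windows are printed for the 2 members whose signals did not overlap between genotypes, Tgfbr1 (chr4:47352972-47353221, plus strand) and Bmp6 (chr13:38345466-38345715, plus strand), and for the 2 other pathway genes that fell, Acvr2a (chr2:48813859-48814108, plus strand) and Itgb6 (chr2:60722604-60722853, minus strand). Each runs 5' to 3' up to the outermost start, as in RefSeq, with CpG in capitals.
Tgfbr1: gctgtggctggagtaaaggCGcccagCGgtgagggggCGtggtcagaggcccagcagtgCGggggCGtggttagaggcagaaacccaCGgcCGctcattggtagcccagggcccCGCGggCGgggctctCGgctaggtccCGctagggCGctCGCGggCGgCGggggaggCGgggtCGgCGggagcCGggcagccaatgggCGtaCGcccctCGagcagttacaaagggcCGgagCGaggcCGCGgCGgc
Bmp6: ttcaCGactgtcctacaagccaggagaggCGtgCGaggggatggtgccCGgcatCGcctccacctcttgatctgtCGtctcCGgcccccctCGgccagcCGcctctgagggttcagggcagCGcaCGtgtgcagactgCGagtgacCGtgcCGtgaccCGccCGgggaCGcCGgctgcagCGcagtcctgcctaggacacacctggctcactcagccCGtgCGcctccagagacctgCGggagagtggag
Acvr2a: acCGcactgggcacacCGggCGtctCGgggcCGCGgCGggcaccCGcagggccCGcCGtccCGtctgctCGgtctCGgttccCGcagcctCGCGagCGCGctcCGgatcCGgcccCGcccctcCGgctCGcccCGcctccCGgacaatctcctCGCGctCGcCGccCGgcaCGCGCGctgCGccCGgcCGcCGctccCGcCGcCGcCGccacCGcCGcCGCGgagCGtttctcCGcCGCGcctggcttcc
Itgb6: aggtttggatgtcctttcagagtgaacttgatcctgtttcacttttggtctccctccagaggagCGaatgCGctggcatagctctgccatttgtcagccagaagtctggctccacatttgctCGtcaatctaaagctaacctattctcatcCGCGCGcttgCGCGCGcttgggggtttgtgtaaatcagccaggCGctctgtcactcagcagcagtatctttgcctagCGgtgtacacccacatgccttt
Acvr2a had 49 CpG, more than 99.9% of all windows, and Itgb6 had 11, above 64.4% of them. A second window of Itgb6, inside the gene, had 3. The 2 other pathway genes that rose, not printed, had 21 (Inhbb) and 18 (Itgb5), above 83.7% and 78.3% of all windows. The SMAD box CAGAC, on either strand, was in 5 of the 9 member windows and in 42.2% of all windows. The GC-rich motif GGCGCC, which is its own reverse complement, was in 1, that of Tgfbr1, against 9.59% of all windows. TATAAA was in 2, those of Tgfb2 and Inhba, against 12.4%. A match of letters is not a binding site.

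None of the 10 genes passed the test between genotypes. A probe set entered the gene test if its signal exceeded the array's 40th percentile in 3 or more of the 6 hearts, and each gene was represented by its brightest such probe set. That left 9 of the 10 genes, with Ltbp2 too dim. By limma with Benjamini-Hochberg adjustment over 13634 genes 0 of the 9 passed the threshold of 0.05, which 5.39% of all genes passed (2.24% higher and 3.15% lower in DNMTs-Tg). At an unadjusted p under 0.05 there were 3 (Bmp6, Bmp4 and Tgfbr1, all higher in DNMTs-Tg), against 26% of all genes and 12.9% in that direction. The groups did not overlap for 2, Tgfbr1 and Bmp6, both higher, against 34.9% of all genes, 17.3% higher and 17.6% lower. Nothing particular to the members is read from these counts of 9 genes. Tested one by one without the filter, 0 of the 20 probe sets passed, where 2.11% of all 45037 probe sets did, and 3 had an unadjusted p under 0.05, against 19.2%. The median log2 difference of the 9 genes was 0.14, that of all genes 0.0055. DNMTs-Tg replicate 1 gave the highest signal of the 6 arrays for 9 of the 10 genes, all but Tgfbr3, although for Bmp6 it was level with replicate 6 to the decimals given.

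**Figure D1:**
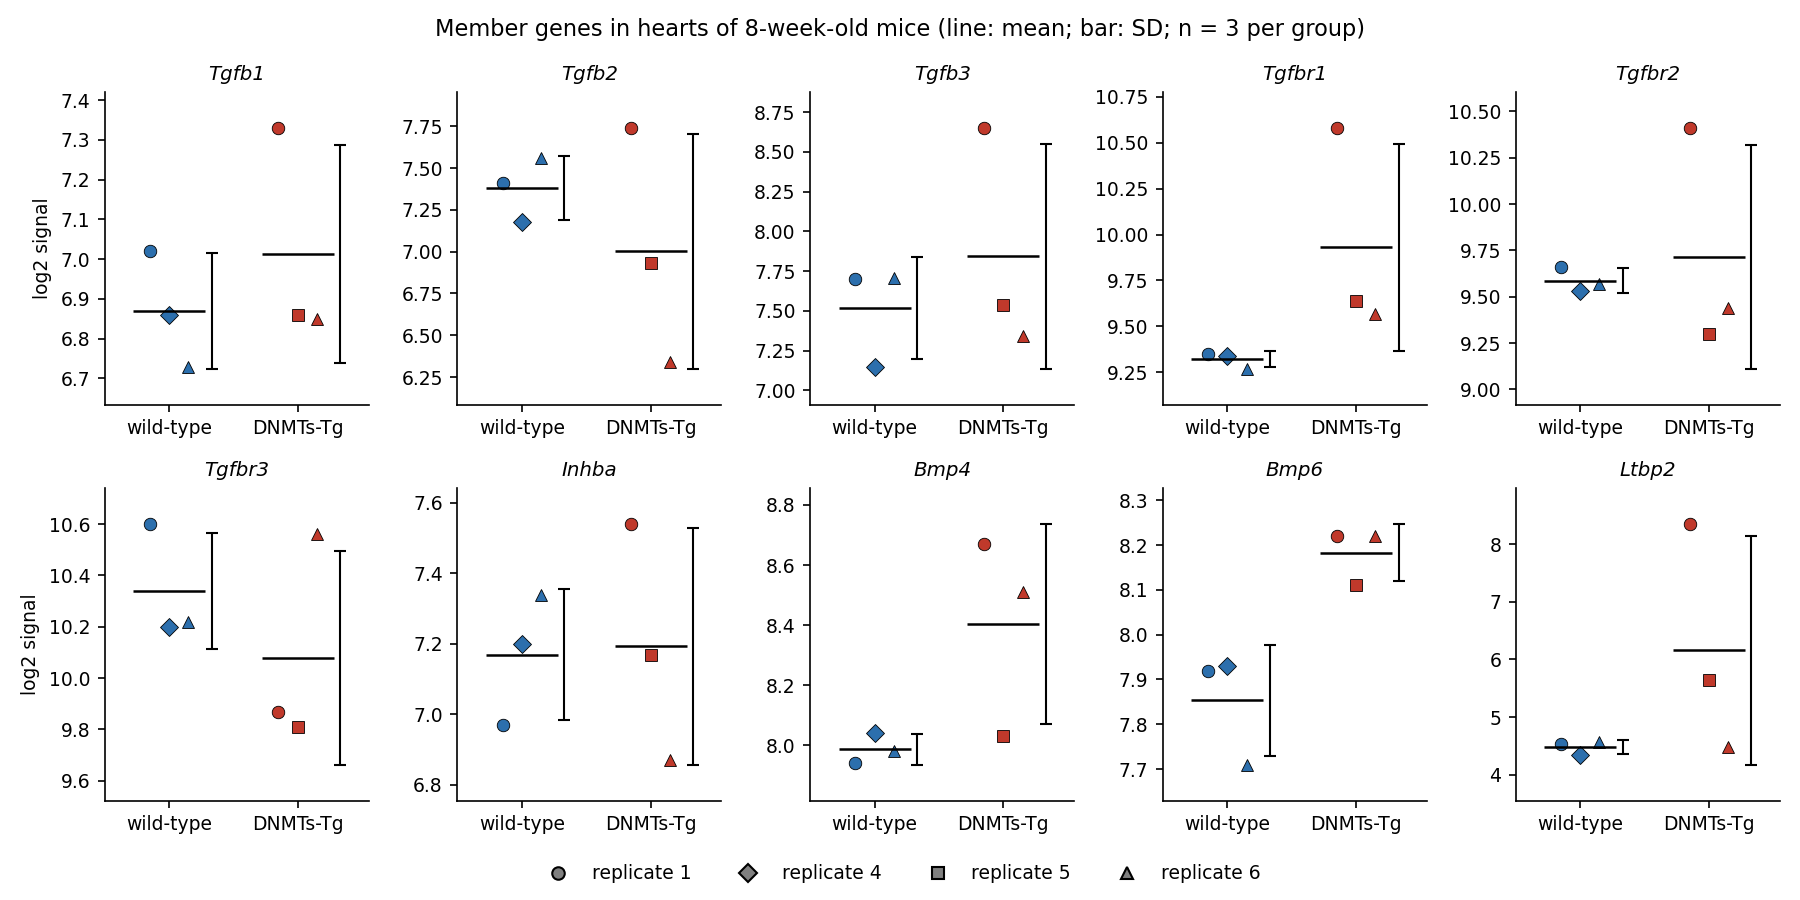
Log2 signal (vertical axis, scaled to each gene) of the 10 genes in 3 wild-type (blue) and 3 DNMTs-Tg (red) hearts, for the brightest kept probe set or, for Ltbp2, its only one; symbols give the replicate number, lines the mean and bars the SD. DNMTs-Tg replicate 1 (red circle) is the highest of the 6 points in every panel but that of Tgfbr3, and is level with replicate 6 for Bmp6. Only Tgfbr1 and Bmp6 have groups that do not overlap.

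Among the TGF-beta ligands, Tgfb1, the form best known for fibrosis, had log2 signals of 7.33, 6.86 and 6.85 in DNMTs-Tg replicates 1, 5 and 6 and of 7.02, 6.86 and 6.73 in wild-type replicates 1, 4 and 6. The groups overlapped, with DNMTs-Tg replicate 1 above all other arrays. The difference was 0.14 (95% interval -0.25 to 0.53, limma, adjusted p = 0.627), and -0.018 without DNMTs-Tg replicate 1. It was 0.22 without DNMTs-Tg replicate 5 or 6 or wild-type replicate 1, and 0.070 without wild-type replicate 6. Its second probe set lay below the 40th percentile on every array.

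Tgfb2, which depends on the co-receptor TGFBR3 for strong binding, had log2 signals of 7.74, 6.93 and 6.34 in DNMTs-Tg replicates 1, 5 and 6 and of 7.41, 7.18 and 7.56 in the wild-type replicates. The transgenic hearts enclosed the wild-type ones, with replicate 1 above and replicates 5 and 6 below all 3. The difference was -0.38 (95% interval -1.16 to 0.39, adjusted p = 0.495) and moved to -0.75 without DNMTs-Tg replicate 1 and to -0.049 without replicate 6 (adjusted p in the range of 0.0428 to 0.914 over all alternatives). The other kept probe sets of Tgfb2 kept DNMTs-Tg replicate 1 highest and replicate 6 lowest: the second had 7.26, 6.30 and 5.39 in DNMTs-Tg against 6.32 to 6.81 in wild-type, and the third 6.42, 5.08 and 4.99 against 5.20 to 5.79. Their differences were -0.20 and 0.06, and the mean of the 3 probe sets gave -0.17.

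Tgfb3 had log2 signals of 8.65, 7.54 and 7.34 in DNMTs-Tg and of 7.70, 7.15 and 7.71 in wild-type hearts. Only replicate 1 exceeded the wild-type range. The difference was 0.33 (95% interval -0.49 to 1.15, adjusted p = 0.585), -0.078 without that array, 0.58 without replicate 6 and 0.14 without wild-type replicate 4. The spread among the DNMTs-Tg hearts was 0.71 (SD, n = 3) for Tgfb3 and 0.70 for Tgfb2, against 0.32 and 0.19 in wild-type hearts.

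Inhba encodes the subunit that dimerizes to activin A. It had log2 signals of 7.54, 7.17 and 6.87 in DNMTs-Tg and of 6.97, 7.20 and 7.34 in wild-type hearts. The groups covered nearly the same range, and the difference was 0.02 (95% interval -0.44 to 0.48, adjusted p = 0.956). Its sign turned without DNMTs-Tg replicate 1 (-0.15) and without wild-type replicate 1 (-0.080). Its second probe set lay below the 40th percentile on every array.

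The BMP ligands Bmp6 and Bmp4 had higher means in DNMTs-Tg hearts, and neither passed. Bmp6, known as an endothelial signal for hepcidin in the liver, had log2 signals of 8.22, 8.11 and 8.22 in DNMTs-Tg and of 7.92, 7.93 and 7.71 in wild-type hearts. Every transgenic heart lay above every wild-type heart. The difference was 0.33 ± 0.11 (SE, n = 3 per group; 95% interval 0.07 to 0.59), a 1.26-fold level, and did not pass (adjusted p = 0.126). Without DNMTs-Tg replicate 1 it was 0.31, and without wild-type replicate 4, the array with high Xist, 0.36 (adjusted p = 0.252).

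Bmp4, a ligand of heart and valve development, had log2 signals of 8.67, 8.03 and 8.51 in DNMTs-Tg and of 7.94, 8.04 and 7.98 in wild-type hearts. DNMTs-Tg replicates 1 and 6 were high and replicate 5 stood within the wild-type range. The difference was 0.42 ± 0.17 (SE; 95% interval 0.01 to 0.83, adjusted p = 0.182) and 0.29 without replicate 1. Within each array Bmp4 and Bmp6 were set against each other: their log2 difference moved by 0.09 between genotypes (exact permutation test, 2-sided p = 0.7, also after adjustment).

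Tgfbr1, the type I receptor whose CpG-dense promoter is printed above, had log2 signals of 10.58, 9.64 and 9.57 in DNMTs-Tg and of 9.35, 9.34 and 9.27 in wild-type hearts. The groups did not overlap, but replicate 1 alone lay far above the rest. The difference was 0.61 ± 0.26 (SE, n = 3 per group; 95% interval 0.00 to 1.22), a 1.53-fold level, and did not pass (adjusted p = 0.190). Without DNMTs-Tg replicate 1 it was 0.29 (adjusted p = 0.109), and without wild-type replicate 4 it was 0.62 (adjusted p = 0.349). The other 2 probe sets of Tgfbr1 lay below the 40th percentile on every array.

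Tgfbr2, the type II receptor that binds TGF-beta first, had log2 signals of 10.41, 9.30 and 9.44 in DNMTs-Tg and of 9.66, 9.53 and 9.57 in wild-type hearts. Replicate 1 was above and replicates 5 and 6 below every wild-type heart. The difference was 0.13 (95% interval -0.52 to 0.78, adjusted p = 0.798). It was -0.21 without replicate 1, 0.34 without replicate 5 and 0.27 without replicate 6. A second kept probe set had 5.75 to 6.06 and 5.74 to 5.96.

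Tgfbr3 encodes betaglycan, the co-receptor that presents TGF-beta to TGFBR2. It had log2 signals of 9.87, 9.81 and 10.56 in DNMTs-Tg and of 10.60, 10.20 and 10.22 in wild-type hearts. DNMTs-Tg replicates 1 and 5 were low, and replicate 6 lay within the wild-type range. The difference was -0.26 (95% interval -0.78 to 0.26, adjusted p = 0.486). It was -0.50 without DNMTs-Tg replicate 6, -0.16 without replicate 1, -0.13 without replicate 5 and -0.13 without wild-type replicate 1. It was the only one of the 10 genes in which DNMTs-Tg replicate 1 did not hold the highest signal.

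Receptor probe sets were also set against each other within single arrays. The log2 difference between the Tgfbr1 and Tgfbr2 probe sets was 0.21 ± 0.11 (SD, n = 3) in DNMTs-Tg and -0.27 ± 0.07 in wild-type hearts, a shift of 0.48 that did not pass (exact 2-sided permutation p = 0.1, the minimum for these groups, and 0.15 adjusted over the 6 pairs of genes computed). Against Tgfbr3 the shift of Tgfbr1 was 0.88 with overlapping groups (exact permutation p = 0.3, adjusted 0.36). All 6 pairs were chosen after the values of single genes were known, and the 3 that join a called gene to a relative restate its call and are not given.

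Ltbp2 is a matrix protein of elastic fibres that, unlike LTBP1, LTBP3 and LTBP4, does not bind latent TGF-beta. It had the widest spread of the 10 genes. Its log2 signals were 8.35, 5.65 and 4.48 in DNMTs-Tg and 4.54, 4.34 and 4.56 in wild-type hearts. DNMTs-Tg replicates 1 and 5 were high, and replicate 6 lay within the wild-type range. The 3 wild-type hearts and DNMTs-Tg replicate 6 were under their arrays' 40th percentile. With the wild-type values raised to that percentile, the DNMTs-Tg mean was 2.72-fold higher, and 1.27-fold without replicate 1. The dim DNMTs-Tg replicate 6 entered at its own signal, so neither value is a strict lower bound, and only 2 of 3 DNMTs-Tg arrays measured Ltbp2. The difference did not pass among all probe sets (1.68 ± 0.81, SE, limma, adjusted p = 0.303) and was 0.58 without replicate 1 (adjusted p = 0.345).

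**Figure D2:**
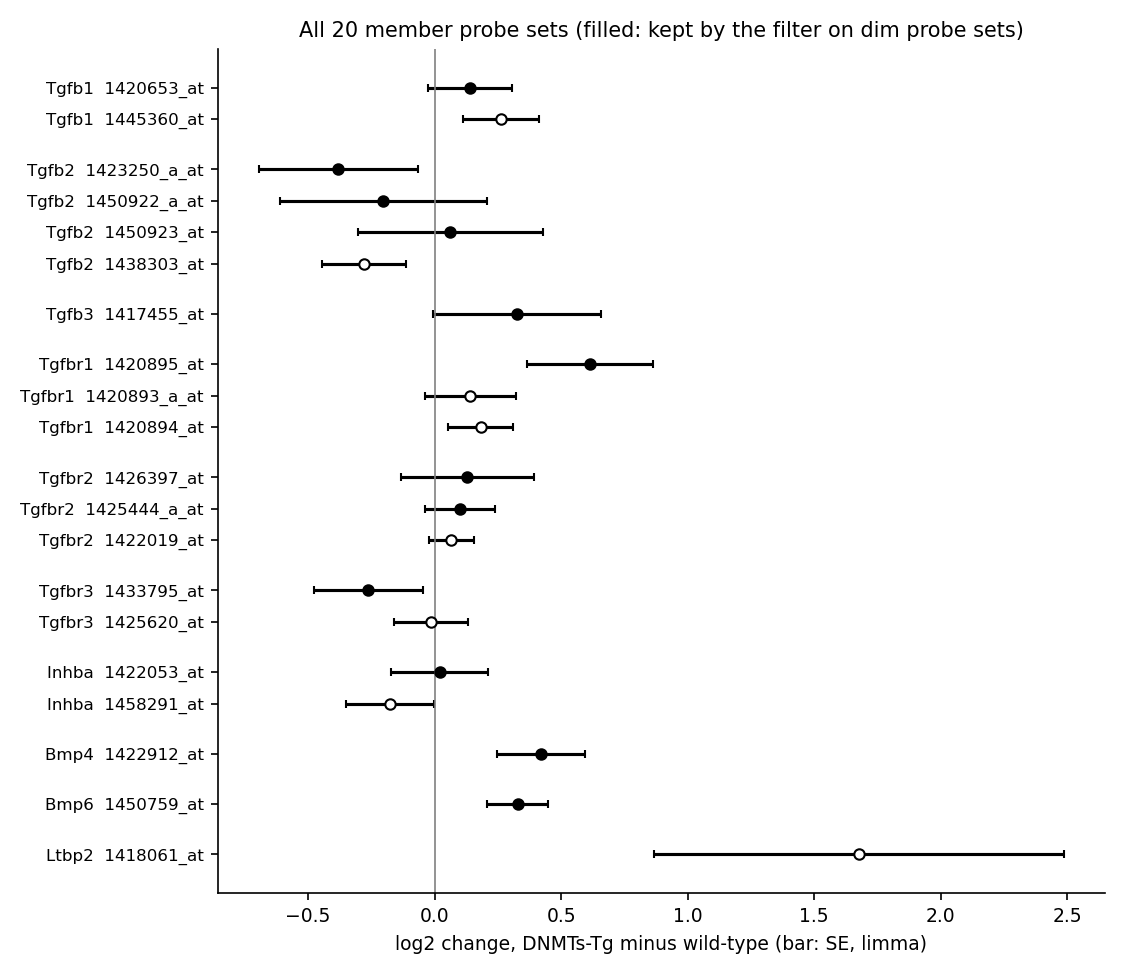
Log2 change from wild-type to DNMTs-Tg (horizontal axis; bars are the SE from limma over all 45037 probe sets, 3 arrays per group) for the 20 probe sets of the 10 genes, filled where kept by the filter. All but Ltbp2 lie between -0.38 and 0.61, Ltbp2 lies at 1.68 with the widest bar, and none passed the threshold.

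The rest of the pathway was read from lists of other ligands, receptors, latent TGF-beta handling, SMADs, inhibitors and responding genes, which held 133 genes, of which 106 could be tested. By limma 2 rose and 2 fell, a share to be read against the 5.39% of all genes. At an unadjusted p under 0.05 there were 32 (24 higher and 8 lower), to be read, as are the counts of each list below, against 26% of all genes. The 4 were the ligand subunit gene Inhbb, the receptor gene Acvr2a and the integrin subunit genes Itgb5 and Itgb6.

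Of the other ligands, 1 of 18 measured rose and 0 fell, with a median of -0.08. The riser was Inhbb, which encodes the beta B subunit of activin B, a relative of Inhba. It had log2 signals of 7.24, 6.76 and 7.02 in DNMTs-Tg and of 5.60, 5.57 and 5.70 in wild-type hearts. All 3 transgenic hearts lay above the wild-type ones, replicate 1 highest. It rose by 1.39 ± 0.15 (SE, n = 3 per group), which is 2.61-fold (adjusted p = 0.00474), and was called with any 1 array left out (1.27 to 1.51). Its second kept probe set had 5.59, 5.97 and 6.13 against 5.84, 5.72 and 5.81, a difference of 0.11 (adjusted p = 0.755), and was the brighter of both in wild-type hearts, so that Inhbb was represented by the risen one because of its DNMTs-Tg values. With the mean of both the change was 0.75 (adjusted p = 0.0126).

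Of the other receptors, 0 of 13 rose and 1 fell, with a median of -0.18. Acvr2a encodes a type II receptor for activins, and its promoter was the densest in CpG of those printed. It had log2 signals of 8.89, 9.25 and 9.23 in DNMTs-Tg and of 9.70, 9.92 and 9.80 in wild-type hearts. It fell by 0.68 ± 0.13 on the log2 scale (SE, adjusted p = 0.0340). A dimmer probe set had 6.39, 6.14 and 5.98 against 5.70, 6.02 and 6.34, with overlap, and the mean of both gave -0.27 (adjusted p = 0.214). The call was lost without DNMTs-Tg replicate 5 (adjusted p = 0.0880) or without wild-type replicate 1, 4 or 6 (adjusted p = 0.113, 0.141 and 0.121).

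Of the genes that store and activate latent TGF-beta, 1 of 13 rose and 1 fell, with a median of 0.25. Both encode beta subunits that pair with integrin alpha-v. Itgb5 had log2 signals of 11.28, 10.88 and 10.74 in DNMTs-Tg and of 10.28, 10.12 and 10.11 in wild-type hearts. It rose by 0.80 ± 0.15 (SE, adjusted p = 0.0315), and its 3 other probe sets, 2 of which the array design marks as open to signal from other transcripts, differed by 0.65 to 0.84, each without overlap, but 2 of these 3 did not pass among all probe sets (adjusted p = 0.124 and 0.104). With the mean of its 4 probe sets Itgb5 did not pass (0.77, adjusted p = 0.0563). Itgb6, best known in epithelia, had 4.42, 4.84 and 5.26 against 5.98, 6.04 and 6.65. It fell by 1.39 ± 0.26 on the log2 scale (SE, adjusted p = 0.0305), with DNMTs-Tg replicate 1 below the 40th percentile. Its second probe set differed by -0.35 without overlap but did not pass by limma among all probe sets (adjusted p = 0.221). That probe set exceeded the 40th percentile on only 1 of 3 DNMTs-Tg arrays. With the mean of both the difference was -0.87 (adjusted p = 0.0426). Both calls were lost without DNMTs-Tg replicate 5 (adjusted p = 0.0989 for Itgb5 and 0.109 for Itgb6). Both were also lost without wild-type replicate 1 (0.108 and 0.0937), 4 (0.130 and 0.0962) or 6 (0.121 and 0.0994).

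**Figure D3:**
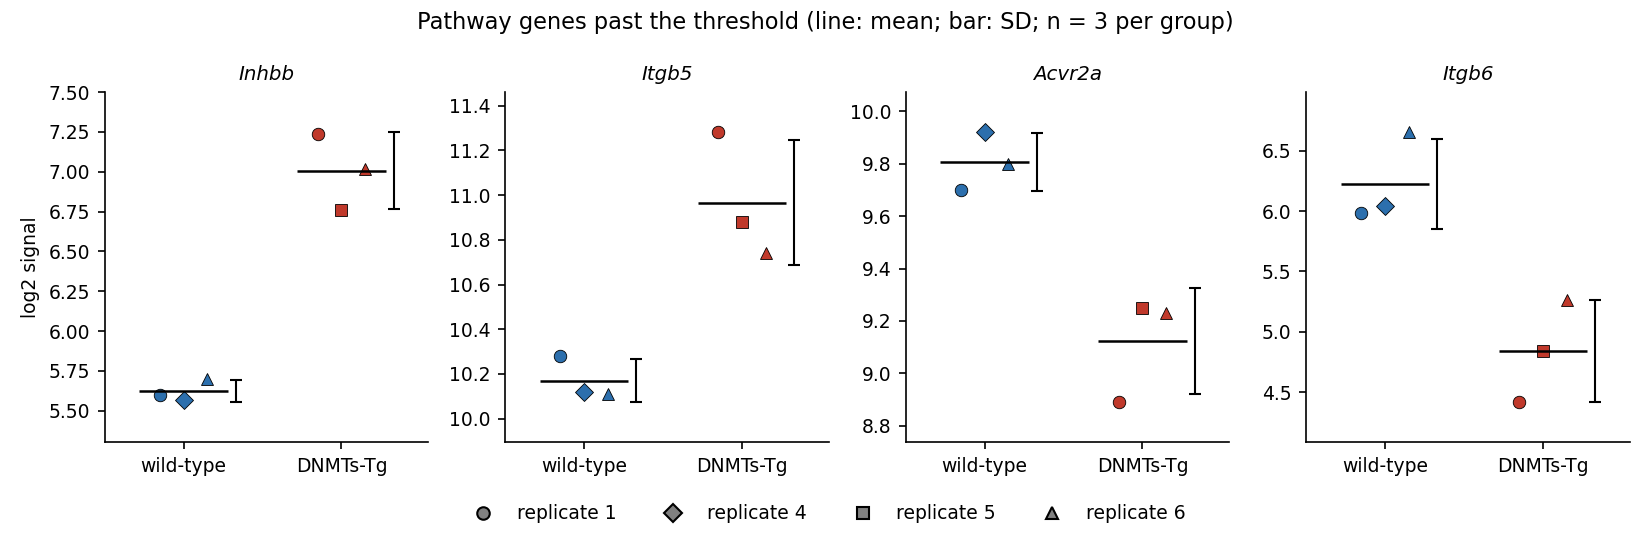
Log2 signal (vertical axis, scaled to each gene) of the 4 pathway genes past the threshold in 3 wild-type (blue) and 3 DNMTs-Tg (red) hearts; symbols give the replicate number, lines the mean and bars the SD. Inhbb lies at 6.76 to 7.24 against 5.57 to 5.70, and no gene has overlapping groups.

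Of the 8 measured SMADs and adaptors 0 passed by limma, with 2 at an unadjusted p under 0.05. Smad3, a transducer of TGF-beta and activin, had 7.80, 8.04 and 8.09 against 8.39, 8.51 and 8.57, a difference of -0.51 (adjusted p = 0.0574). Smad1, a transducer of BMP, had 9.81, 9.25 and 9.56 against 9.11, 9.12 and 9.20, a difference of 0.39 (adjusted p = 0.162). Neither had overlapping groups, as for 34.9% of all genes. Smad3 passed without DNMTs-Tg replicate 6 (adjusted p = 0.0420) and was -0.32 with the mean of its probe sets, and Smad1 was 0.26 without DNMTs-Tg replicate 1.

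Of 11 inhibitors inside the cell 0 passed, with 4 at an unadjusted p under 0.05, all higher, against 12.9% of all genes in that direction. Of the 11 differences 10 lay above 0 (median 0.19), as did 6924 of 13634 over all genes. Bambi, a decoy receptor without a kinase, had 9.57, 9.83 and 9.68 against 8.92, 9.29 and 9.37 (adjusted p = 0.0951). Smad7, which blocks type I receptors and is itself induced by TGF-beta, had 8.88, 8.36 and 8.29 against 8.08, 8.03 and 8.00 (adjusted p = 0.136), a difference of 0.47 that was 0.29 without DNMTs-Tg replicate 1. Of 12 secreted antagonists 0 passed, with 3 at an unadjusted p under 0.05 and a median of 0.10. The matrix proteoglycan gene Bgn had 13.00, 11.68 and 11.28 against 10.79, 10.68 and 10.70 (adjusted p = 0.110), and Sost, a WNT and BMP antagonist of bone, had 5.61, 5.96 and 5.35 against 5.33, 4.84 and 4.97 (adjusted p = 0.120).

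Of 26 measured genes known to respond to TGF-beta in fibroblasts, 0 passed by limma. At an unadjusted p under 0.05 there were 9, each higher in DNMTs-Tg, where 12.9% of all genes were. Of the 26 differences 24 lay above 0, as did 6924 of the 13634 over all genes, and the median was 0.85. The 2 below 0 were Acta2 (-0.73) and Snai2 (-0.10), and Tagln was near 0 (0.02). Timp1, an inhibitor of matrix metalloproteases, had 10.84, 8.53 and 7.41 against 6.19, 5.72 and 6.16 (adjusted p = 0.0758), and the matrix gene Tnc had 8.13, 6.58 and 6.19 against 5.17, 5.89 and 5.07 (adjusted p = 0.106), a difference of 1.59 that was 1.01 without DNMTs-Tg replicate 1. Relative to wild-type, the list's mean was 1.95 in DNMTs-Tg replicate 1, 0.66 in replicate 5 and 0.22 in replicate 6, and lay between -0.08 and 0.15 in the wild-type hearts, so that replicate 6 stood near the wild-type range. Macrophage markers stood at 1.43 on DNMTs-Tg replicate 1, and their part in these values was not tested. Of 12 BMP-responsive genes 0 passed, with 5 at an unadjusted p under 0.05 and a median of 0.16. Smad7 is on this list, on that of TGF-beta responders and on that of inhibitors inside the cell, so their counts share genes. Besides Bambi, which the list of inhibitors inside the cell also holds, Msx1 had 7.15, 6.97 and 7.13 against 6.55, 6.72 and 6.83 (adjusted p = 0.115). Its difference of 0.38 was 0.088 with the mean of its probe sets (adjusted p = 0.602). The BMP list stood at 0.32 in DNMTs-Tg replicate 1, 0.20 in replicate 5 and 0.17 in replicate 6, and between -0.02 and 0.01 in wild-type hearts.

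**Figure D4:**
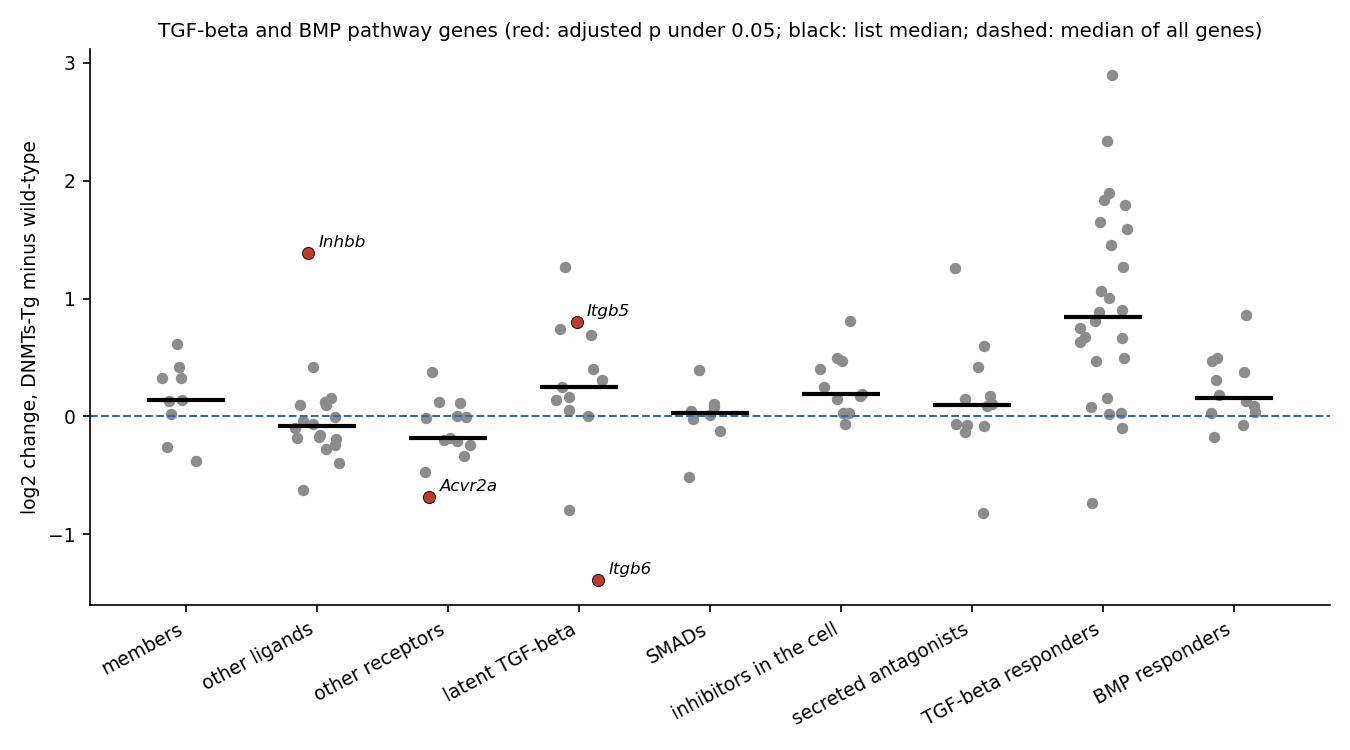
Log2 change from wild-type to DNMTs-Tg (vertical axis) of each measured gene, by list; red points passed the adjusted threshold, black lines are list medians and the dashed line is the median of all genes. The responders to TGF-beta have the highest median (0.85), and the only called genes are Inhbb, Itgb5, Acvr2a and Itgb6.

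Without DNMTs-Tg replicate 1 the pathway genes called were 8 of 106, where 1067 of all 13634 genes were called. Inhbb, Itgb5, Acvr2a and Itgb6 were still called, and Bgn (0.76, adjusted p = 0.0181), Timp1 (1.94, adjusted p = 0.0183), the matrix gene Postn (0.99, adjusted p = 0.0411) and the integrin subunit gene Itgav (0.52, adjusted p = 0.0480) were added. These last were picked after their values were seen. Leaving out DNMTs-Tg replicate 6 gave 19 called pathway genes, where 1604 of all 13634 genes were called. Leaving out DNMTs-Tg replicate 5 or any 1 wild-type array gave 1, Inhbb, where 123 to 202 of all genes were called. The pathway counts are to be read against these counts of all genes. The number of called members was 0 in each of these 6 fits.

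Markers of other cell types were read on the same arrays. Relative to wild-type, the mean of the 9 measured members was 0.55 in DNMTs-Tg replicate 1, -0.07 in replicate 5 and -0.04 in replicate 6, and lay between -0.07 and 0.06 in wild-type hearts. On those DNMTs-Tg arrays 11 of 12 macrophage markers, the ones measured, stood at 1.43, -0.04 and 0.14 (wild-type -0.12 to 0.11), and all 8 fibroblast markers at 0.46, -0.13 and -0.06 (wild-type -0.06 to 0.08). The 8 cardiomyocyte markers stood at -0.24, -0.03 and 0.02 (wild-type -0.01 to 0.01), the 8 endothelial markers at 0.06, 0.14 and 0.32 (wild-type -0.05 to 0.05), and the 8 smooth muscle and pericyte markers at 0.00, -0.27 and -0.12 (wild-type -0.25 to 0.13). Platelet markers, 5 of 5 measured, ranged from -0.81 to 0.43 in DNMTs-Tg and from -0.27 to 0.17 in wild-type hearts. Of these 6 lists 1 marker passed, the endothelial Vwf, with 10.20, 9.75 and 9.85 against 8.80, 8.72 and 8.10 (1.39, adjusted p = 0.0177). It was lost without DNMTs-Tg replicate 5 (adjusted p = 0.0629) and without wild-type replicate 1 or 4 (0.0544 and 0.0583). Of the 8 endothelial markers 5 differences lay above 0 and 3 below, Kdr (-0.11), Tek (-0.24) and Emcn (-0.19), with a median of 0.06. Of the 11 macrophage markers 10 lay above 0. Ccr2 and Fcgr1 were higher without overlap, as were 17.3% of all genes. Ccr2 had 7.03, 5.68 and 5.96 against 4.79, 4.84 and 4.74 (limma, adjusted p = 0.0509). Among the 8 cardiomyocyte markers Actn2 (0.41, adjusted p = 0.0568) and Myl3 (0.03) lay above 0 and 6 below. Actn2 and Tnnt2 were highest on DNMTs-Tg replicate 1, where the list mean was lowest. Epicardial (4 of 5 markers measured, median change 0.10), lymphocyte (3 of 6, 0.09), adipocyte (1 of 4, -0.08) and skeletal muscle markers (3 of 5, 1.22) had 0 past the threshold. At an unadjusted p under 0.05 they had 1, 0, 0 and 2. The skeletal muscle markers were split, with Acta1 (2.19) and Mybpc2 (1.22) higher and Tnni2 (-0.47) lower, each without overlap. Acta1 had a mean log2 signal of 12.04 in wild-type hearts as well. Fewer cells of a type and less RNA per cell cannot be told apart in whole hearts, and the part of these cell types in the differences was not tested.

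**Figure D5:**
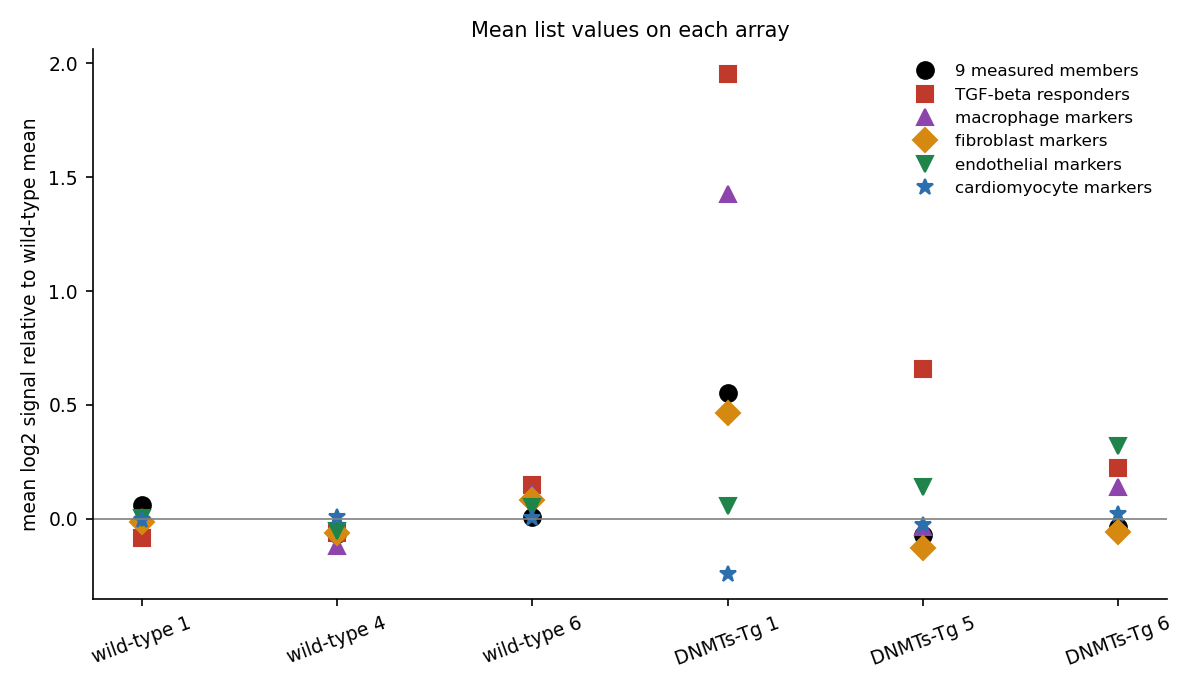
Mean log2 signal of each list relative to its wild-type mean (vertical axis) on the 6 arrays (horizontal axis). On DNMTs-Tg replicate 1 the responders to TGF-beta (1.95), macrophage markers (1.43), the 9 measured members (0.55) and fibroblast markers (0.46) lie above all other arrays, and cardiomyocyte markers (-0.24) below them.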

How the data were processed

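Hearts were frozen in liquid nitrogen and total RNA was labelled with biotin for Affymetrix arrays, per the labels' protocols. The deposited values, 1 per probe set and array, were taken as log2 signals, since they lay between 2.06 and 14.7; how they were background-corrected and normalized, and by which software, is not given in the sources used here. They were analysed as deposited. Symbols from the platform annotation were updated through gene identifiers to GRCm38.p6. After the filter described in the text (27377 probe sets, 13634 genes), limma 3.58.1 (R 4.3.3) gave 2-sided tests of each difference (lmFit, then eBayes with a trend, Benjamini-Hochberg, threshold 0.05); 64 control probe sets were left out. The steps were tested on simulated data. For a gene dim on all arrays of 1 group only, that group's values were raised to the 40th percentile before the fold was taken. The number of arrays limits the precision.

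All members are named; from each pathway list up to 4 called genes, otherwise the 2 with the smallest p. Members and lists were chosen with earlier results of these data known. Alternatives were quantile normalization, equal medians, other filters, the mean of probe sets, no trend, array weights, a replicate block, and each array left out, with the probe sets of all 6 arrays kept.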

Additional observations from a re-analysis of the deposited data

How the results depend on the processing

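The count of called members was 0 under every alternative but array weights, whose estimation stopped before it converged. With those weights 4 of 9 members were called, Bmp6 (0.25) and Tgfbr1 (0.34) higher and Tgfb2 (-0.47) and Tgfbr3 (-0.55) lower, and 1 of the 20 probe sets, a dim one of Tgfb2 (-0.44). The weights also gave 42 called pathway genes and 4822 called genes in all, against 4 and 735 by the equal-weight fit. The cause was not tested. With the label number as a replicate block (only 1 and 6 occur in both genotypes) 0 pathway genes, 0 members and 1 gene in all were called. Nothing in the labels says that equal numbers mark related mice, and same-numbered arrays did not deviate together (r = -0.05 and -0.08 across 13634 genes, which are not independent replicates). With 1 array left out the called members stayed at 0, the called pathway genes ranged from 1 to 19 and all called genes from 123 to 1604. Of 126 alternative values of the 9 members, 8 turned sign, none of them called: Inhba under quantile normalization (-0.027), Tgfb1 (-0.039) and Tgfbr2 (-0.26) under array weights, and Inhba (-0.15 to 0.18), Tgfb1 (-0.018 to 0.22), Tgfb3 (-0.078 to 0.58) and Tgfbr2 (-0.21 to 0.34) with 1 array left out. The direction of Bmp4, Bmp6, Tgfbr1, Tgfb2 and Tgfbr3 was kept in all 14 alternatives. Signals below the 40th percentile limit what can be said of Ltbp2 and of the dim probe sets.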

Other observations

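For the 3 members with the smallest p, the genes whose signals followed them most closely over the 6 arrays were listed, among 13634 genes and with arrays and genotypes shared, as a description. For Bmp6 they were Tnks (Pearson r = 0.996), Mthfsd (0.995) and Cdk10 (0.993). Tnks had log2 signals of 8.27, 8.11 and 8.26 in DNMTs-Tg replicates 1, 5 and 6 and of 7.94, 7.90 and 7.68 in wild-type hearts. For Bmp4 they were Ctsh (0.995), Sypl (0.994) and Mfsd14b (0.991), and for Tgfbr1 Ubxn1 (1.000), the matrix gene Thbs3 (0.996) and Prr14l (0.996). Thbs3 had 7.18, 5.92 and 5.75 against 5.53, 5.47 and 5.25, with DNMTs-Tg replicate 1 far above the others, as for Tgfbr1.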
